A study of Mus musculus with 12 samples.

Results

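The genes of cholesterol and fatty acid synthesis were followed through 12 RNA-seq libraries of 3T9MycER fibroblasts. The 31 members were taken from the expression table by symbol, out of 21604 genes with usable values, and fall into 4 roles: 16 enzymes of the sterol branch, 5 genes of the SREBP control system, 2 genes of sterol transport and 8 enzymes of fatty acid synthesis. 3T9MycER cells are immortalized mouse embryonic fibroblasts, and every group of the series carries MycER, a Myc protein that is made constitutively and becomes active on 4-hydroxytamoxifen (OHT). The 6 groups of 2 libraries were cells given the solvent DMSO, the inhibitor verteporfin (VP) or the inhibitor Y27632 (Y27), each without OHT or with it (DMSO + OHT, VP + OHT, Y27 + OHT). The inhibitors were applied for 8 h: VP, which interferes with the YAP-TEAD pair, at 20 µM, and Y27, which blocks ROCK kinase activity, at 50 µM. For its inhibitor experiments the paper describes cells that were starved of serum and then held in low serum. The sources differ on whether these cells were confluent, and nothing states that replicates were separate cultures. The p-values therefore set group differences against the spread among these libraries only, which need not be the spread between cultures.

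Cholesterol is built in the cytosol and endoplasmic reticulum from acetyl-CoA through mevalonate, isoprenoid diphosphates and squalene, which is closed to lanosterol and then trimmed to cholesterol. Fatty acid synthesis starts from the same acetyl-CoA, which is carboxylated and built into palmitate, and elongases and desaturases then lengthen and unsaturate the chain. Both branches are under SREBP transcription factors, which are held in the endoplasmic reticulum by Insig proteins and escorted to the Golgi by Scap when sterols run low. This feedback works in fibroblasts as in most cells, and Myc is known to raise lipid synthesis genes in several cell types.

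RefSeq promoter sequence on GRCm38.p6, the 250 bases before each annotated start, was at hand for 24 of the 31 members. The 6 stretches shown belong to members with full values below, and were picked to give 5 with marked letters and 1, Elovl6, with none: Mvk at chr5:114444019-114444268 (plus strand), Hsd17b7 at chr1:169969206-169969455 (minus strand), Ebp at chrX:8193513-8193762 (minus strand), Dhcr7 at chr7:143829964-143830213 (plus strand), Elovl6 at chr3:129532136-129532385 (plus strand) and Fasn at chr11:120824548-120824797 (minus strand). Capitals mark CCAAT (or ATTGG, the same letters on the other strand), the box of the factor NF-Y that commonly works beside SREBP, and CACGTG, the E-box letters that Myc and other factors bind.
Mvk: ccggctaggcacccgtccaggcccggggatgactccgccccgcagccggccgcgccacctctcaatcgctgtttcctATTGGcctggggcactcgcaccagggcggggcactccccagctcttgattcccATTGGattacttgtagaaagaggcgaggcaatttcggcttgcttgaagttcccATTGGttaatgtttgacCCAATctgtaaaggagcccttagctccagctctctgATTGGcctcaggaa
Hsd17b7: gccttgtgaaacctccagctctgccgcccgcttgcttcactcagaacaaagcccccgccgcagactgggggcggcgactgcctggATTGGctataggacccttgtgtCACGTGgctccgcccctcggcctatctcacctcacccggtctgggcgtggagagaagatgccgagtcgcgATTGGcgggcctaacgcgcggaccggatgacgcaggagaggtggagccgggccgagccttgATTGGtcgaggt
Ebp: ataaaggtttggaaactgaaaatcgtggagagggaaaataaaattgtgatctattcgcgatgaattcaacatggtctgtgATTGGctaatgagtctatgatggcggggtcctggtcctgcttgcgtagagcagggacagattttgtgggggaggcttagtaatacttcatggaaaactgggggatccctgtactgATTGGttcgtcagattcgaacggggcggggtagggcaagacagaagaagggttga
Dhcr7: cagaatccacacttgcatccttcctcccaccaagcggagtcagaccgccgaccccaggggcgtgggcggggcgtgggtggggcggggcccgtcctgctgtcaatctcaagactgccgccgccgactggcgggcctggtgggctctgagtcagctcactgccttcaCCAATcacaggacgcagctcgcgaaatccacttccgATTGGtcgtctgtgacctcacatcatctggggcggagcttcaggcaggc
Elovl6: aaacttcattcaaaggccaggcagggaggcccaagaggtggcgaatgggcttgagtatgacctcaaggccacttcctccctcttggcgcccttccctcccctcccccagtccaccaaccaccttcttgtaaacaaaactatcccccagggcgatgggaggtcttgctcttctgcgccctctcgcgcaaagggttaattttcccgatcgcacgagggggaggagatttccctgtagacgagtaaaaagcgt
Fasn: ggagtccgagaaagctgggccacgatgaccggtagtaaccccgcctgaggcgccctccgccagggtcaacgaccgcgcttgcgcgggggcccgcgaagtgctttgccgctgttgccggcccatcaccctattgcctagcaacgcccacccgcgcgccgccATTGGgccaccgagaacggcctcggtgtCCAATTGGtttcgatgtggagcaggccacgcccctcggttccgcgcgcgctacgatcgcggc
CCAAT on either strand was found for 17 of 24 members, in 18 of their 32 annotated promoters, and in 33.9% of all 32841 promoters of that length. CACGTG was found for 5 members (Hsd17b7, Dhcr7, Scap, Insig1 and Abca1), in 5 of the 32 promoters, and in 6.02% of all promoters. The Dhcr7 stretch printed is 1 of several annotated starts, and its CACGTG lies before another one. GGAATG, letters bound by TEAD factors, was in no member's stretch and in 12.6% of all promoters. The sterol regulatory element, the site that SREBP binds, was searched as an exact run of letters. It was in none of the 32 promoters of the 24 members and in 0.0731% of all promoters. With a match this rare, its absence from 32 promoters does not show whether SREBP binds there. A match is only a run of letters, and no binding was measured here.

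Levels are RPKM, reads scaled to the length of the gene and the depth of the library. Library totals lay between 21857777 and 30856488 reads. Fibroblast markers summed to 102 to 230 RPKM per library, while the summed markers of hepatocytes (at most 0.0774), adipocytes (at most 0.998) and epithelial cells (at most 0.1) were close to 0. Of the 8 fibroblast markers 6 had a mean of at least 0.5 RPKM. Thy1 was at most 0.0237 RPKM in any library and Dcn at most 0.681. Macrophage markers summed to 2.21 to 3.41 RPKM in the 8 libraries without VP and to 8.95 to 12.1 in the 4 with it, carried by Cd14 and Cd68, while the defining markers Ptprc, Csf1r and Emr1 were at most 0.0691 in any library. No gene of at least 1000 bases exceeded 1.8 reads per base in any library, and 11 members reached 20 RPKM in some library. The highest member value equalled 1.23 reads per base, and whether such a limit narrows the differences of the higher members was not tested.

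Of the 31 members 29 had a mean of at least 0.5 RPKM and were tested. Over the 12 libraries the mean level ran from 37.8 RPKM for Scd2, a stearoyl-CoA desaturase, through 34.3 for Sqle, 33.7 for Fdps and 30.7 for Insig1, down to 5.21 for Dhcr7 and 1.41 for Tm7sf2. The fatty acid branch and the sterol branch overlapped widely in level: the 8 fatty acid genes had means of 8.50 to 37.8 RPKM and the 15 tested sterol enzymes had means of 1.41 to 34.3.

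Both members below the minimum are well known in the pathway. Hmgcs1, the cytosolic HMG-CoA synthase, was listed with 0 reads in 8 of 12 libraries and at most 2 reads in any, 5 in sum. The digits of its row imply a length of 8458 bases, which was not compared with an annotated length, so whether the row measures the usual transcript is in doubt and no lack of expression is read from it. Abca1, the cholesterol exporter induced by LXR, had 3 to 46 reads per library. DMSO gave 0.146 and 0.158 RPKM for Abca1, and DMSO + OHT gave 0.119 and 0.108. VP gave 0.0474 and 0.0597, and with OHT added 0.0814 and 0.0642. Y27 gave 0.0446 and 0.0521, and with OHT added 0.011 and 0.0265. The 4 libraries without inhibitor were the highest for Abca1, and its differences were not tested at this depth.

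**Figure D1:**
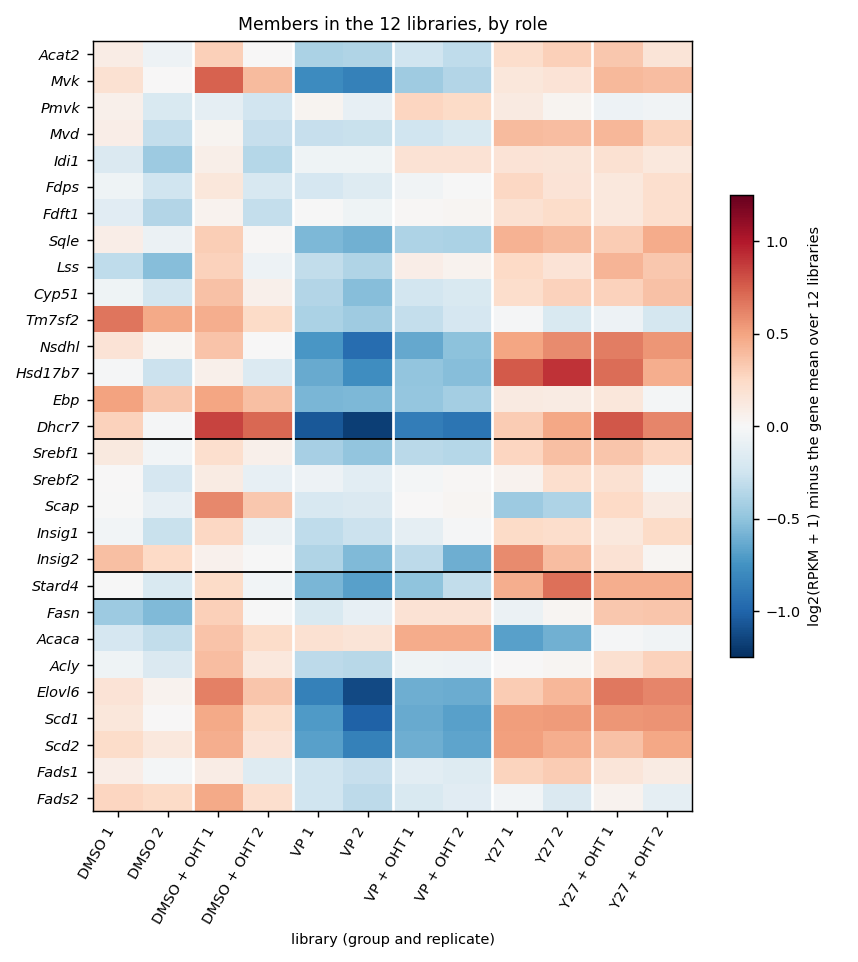
Heat map of the 29 tested members (rows, grouped by role with black lines, in the order sterol synthesis, SREBP regulation, sterol transport, fatty acid synthesis) in the 12 libraries (columns); colour gives log2(RPKM + 1) minus the gene's mean over the 12 libraries. VP and VP + OHT libraries are blue for most rows. Fasn, Acaca, Pmvk and Idi1 are above their mean in VP + OHT, Scap is lowest in Y27, and Tm7sf2 and Ebp are highest in the libraries without inhibitor.

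The DMSO arms stood apart in 1 respect that touches every contrast with them. Replicate 1 was above replicate 2 for 29 of 29 members in DMSO and for 29 of 29 in DMSO + OHT, against 80.4% and 61.3% of all 11081 genes tested. The median difference between the replicates of DMSO + OHT was 0.277 on the log2 scale for members and 0.041 for all genes, and in DMSO it was 0.168 and 0.085. In the other groups replicate 1 was the higher for 22 (VP), 14 (VP + OHT), 12 (Y27) and 18 (Y27 + OHT) of the 29. Counts are therefore also given without the library that moves them.

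**Figure D2:**
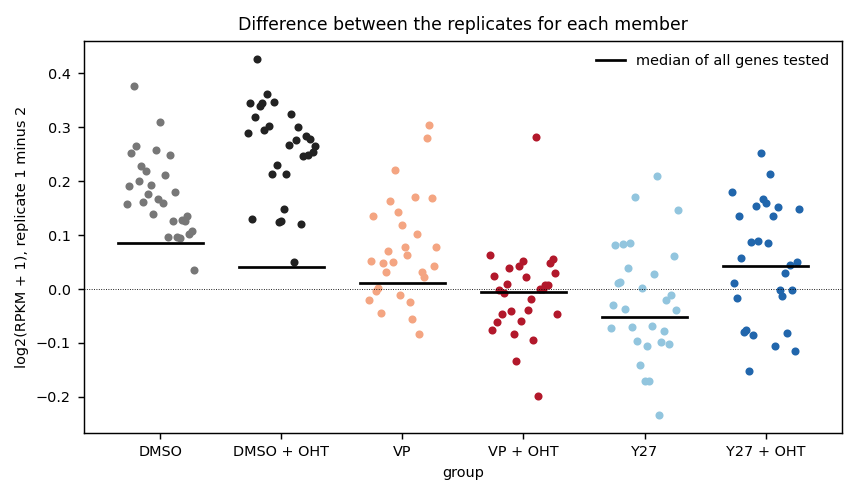
Difference between replicate 1 and replicate 2 of each group (x axis) in log2(RPKM + 1) (y axis); each point is 1 of the 29 tested members and the black line is the median of all 11081 genes. Every point of DMSO and DMSO + OHT lies above 0, while the points of the other groups lie on both sides.

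Changes were tested with limma on log2(RPKM + 1) in 1 fit of the 12 libraries. Each is given with its standard error (SE) and a Benjamini-Hochberg adjusted p over all genes, with 0.05 as the threshold. The added 1 makes changes of low genes smaller.

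VP without OHT lowered much of both branches. Of the 29 members 18 were lower and 2 higher than in DMSO. Among all genes 67.7% passed in either direction, 40.8% lower and 26.9% higher. The median change was -0.40 for members and -0.077 for all genes. Fibroblast and other markers moved with VP too: the 8 fibroblast markers summed to 105 to 113 RPKM in VP and 187 to 192 in DMSO, Col1a1 changed by -1.36 (SE 0.10), Pdgfra by -1.37 (SE 0.11) and Pdgfrb by -1.98 (SE 0.07), and Cd14 rose by 1.58 (SE 0.12). The same 4 genes passed in the same direction with OHT, and their part in the members' changes was not tested. Col1a2 and S100a4 were also lower under VP, without OHT and with it. Vim, the fibroblast marker with the highest mean, had no call without OHT (-0.14, SE 0.12) or with it (-0.19, SE 0.12). In the sterol branch 9 of 15 enzymes fell and none rose, and in the fatty acid branch 6 of 8 fell and 2 rose.

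Most of the sterol enzymes with the larger falls act late in the pathway, and Mvk is an early one. Dhcr7, which makes cholesterol from its last precursor, was at 5.73 and 4.43 RPKM in DMSO and at 1.63 and 1.43 in VP. The groups did not overlap, and Dhcr7 fell by 1.26 on the log2 scale (SE 0.11, adjusted p = 2.2e-07). This fall rests on where the lost decimal sign of the deposited values was put back: placed by closeness of the libraries alone, the VP values are 10-fold higher and the change is 1.43 (adjusted p = 9.8e-08). The 10-fold higher placement would need read numbers divisible by 10 in all 4 VP and VP + OHT libraries. Ebp, the sterol isomerase, went from 11.4 and 10.1 RPKM to 4.86 and 4.90, a change of -0.99 (SE 0.08, adjusted p = 1.1e-07). Tm7sf2, a sterol reductase, went from 2.70 and 2.24 RPKM to 0.778 and 0.718, also -0.99 (SE 0.10, adjusted p = 1.9e-06). Nsdhl, which helps to remove methyl groups from the ring, changed by -0.94 (SE 0.11), from 8.32 and 7.46 RPKM to 4.004 and 3.30. For these genes both VP libraries lay below both DMSO libraries.

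Mvk, the mevalonate kinase, went from 9.55 and 8.25 RPKM to 4.34 and 4.15 (change -0.91, SE 0.10, adjusted p = 2.2e-06). Sqle, squalene epoxidase and a rate-limiting enzyme of the branch, went from 35.2 and 31.4 to 22.1 and 21.6 RPKM (-0.59, SE 0.10). Acat2, of the opening step, and Cyp51 and Hsd17b7, which act after lanosterol, also fell, by 0.40, 0.31 and 0.56 on the log2 scale. The other 6 enzymes had no call. Pmvk, Mvd, Idi1, Fdps, Fdft1 and Lss had changes of -0.18 to 0.27, so no fall past the threshold was seen from Pmvk to Fdft1, the steps that lead to squalene, or for Lss, which closes the ring.

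In the fatty acid branch the chain-modifying enzymes fell under VP while the chain-building enzymes did not follow them. Elovl6, the elongase that acts on palmitate, was at 15.1 and 13.8 RPKM in DMSO and at 6.93 and 5.53 in VP (-1.10, SE 0.10, adjusted p = 5.2e-07). Scd2 was at 42.1 and 39.2 RPKM and then at 21.9 and 19.3 (-0.95, SE 0.10, adjusted p = 1.9e-06), and Scd1, its sister desaturase, at 23.7 and 21.5 and then at 12.7 and 10.1 (-0.93, SE 0.10). Fads2 and Fads1, desaturases of polyunsaturated chains, changed by -0.55 (SE 0.09) and -0.30 (SE 0.08). Acly, the ATP citrate lyase that supplies acetyl-CoA, changed by -0.23 (SE 0.08, adjusted p = 0.026). Acaca, acetyl-CoA carboxylase, rose from 7.18 and 6.66 RPKM to 9.84 and 9.61 (0.44, SE 0.06, adjusted p = 4.6e-05). Fasn, the fatty acid synthase, rose from 19.0 and 17.7 RPKM to 23.1 and 24.5 (0.35, SE 0.09, adjusted p = 0.0034).

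The control genes of the system split as well. Srebf1, which encodes the SREBP form tied mostly to fatty acid genes, was at 11.6 and 10.3 RPKM in DMSO and at 7.67 and 7.22 in VP (-0.50, SE 0.07, adjusted p = 5.3e-05). Insig2 changed by -0.78 (SE 0.11), from 7.53 and 6.81 RPKM to 4.04 and 3.48. Srebf2, the form tied mostly to sterol genes, had a change of 0.01 (SE 0.10), Scap one of -0.14 (SE 0.08) and Insig1 one of -0.14 (SE 0.11), with no call. Stard4, a carrier of cholesterol inside the cell, went from 6.85 and 5.93 RPKM to 4.29 and 3.93 (-0.53, SE 0.11).

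Y27 without OHT raised most of the sterol branch. Of the 29 members 18 were higher and 5 lower than in DMSO. Among all genes 50.7% passed, 17.2% higher and 33.5% lower. The median change was 0.28 for members and -0.068 for all genes. Markers moved with Y27 too: the 8 fibroblast markers summed to 220 to 230 RPKM in Y27 and 187 to 192 in DMSO. Col1a1 (0.35, SE 0.10), Pdgfra (0.61, SE 0.11) and Pdgfrb (0.42, SE 0.07) were higher and Cd14 was lower (-0.38, SE 0.12). Col1a2, Vim, S100a4 and Cd68 had no call. The part of these markers in the members' changes was not tested. In the sterol branch 10 of 15 enzymes rose and 2 fell, and in the fatty acid branch 5 of 8 rose and 2 fell. Without DMSO replicate 2, the lower of that pair for every member, 11 members were higher and 5 lower.

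The rise was largest for Hsd17b7, an enzyme of sterol ring demethylation: 5.37 and 4.33 RPKM in DMSO and 9.89 and 11.02 in Y27, a change of 0.97 (SE 0.11, adjusted p = 1.4e-05). Stard4 was at 9.79 and 11.7 RPKM in Y27, against 6.85 and 5.93 in DMSO (0.67, SE 0.11, adjusted p = 2.2e-04). Lss, lanosterol synthase, was at 8.41 and 7.08 RPKM in DMSO and at 13.0 and 12.2 in Y27 (0.64, SE 0.10, adjusted p = 2.2e-04). For these genes the libraries of the groups did not overlap. Mvd, mevalonate diphosphate decarboxylase, rose from 11.7 and 8.80 RPKM to 14.8 and 14.7 (0.50, SE 0.11), and Idi1, isopentenyl diphosphate isomerase, from 19.0 and 15.6 to 24.6 and 24.4 (0.49, SE 0.11). Fdft1, Nsdhl, Sqle, Cyp51, Fdps and Acat2 rose by 0.25 to 0.46. Mvk, Pmvk and Dhcr7 had changes of 0.06 (SE 0.10), 0.14 (SE 0.08) and 0.27 (SE 0.11, adjusted p = 0.0503).

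Against this direction, Tm7sf2 and Ebp were lower under Y27. Tm7sf2 was at 1.30 and 1.05 RPKM (-0.67, SE 0.10, adjusted p = 1.4e-04) and Ebp at 8.41 and 8.40 RPKM (-0.32, SE 0.08, adjusted p = 0.0041). In the fatty acid branch Fasn was higher, at 24.96 and 26.8 RPKM (0.47, SE 0.09, adjusted p = 7.9e-04), as were Scd1 (0.45, SE 0.10), Scd2 (0.30, SE 0.10), Fads1 (0.26, SE 0.08) and Elovl6 (0.25, SE 0.10, adjusted p = 0.0499). Acaca fell from 7.18 and 6.66 RPKM to 4.92 and 5.25 (-0.38, SE 0.06, adjusted p = 3.1e-04), and Fads2 changed by -0.36 (SE 0.09). Among the control genes Insig1 (0.38, SE 0.11) and Srebf1 (0.28, SE 0.07) rose, and Scap fell from 10.2 and 9.49 RPKM to 7.22 and 7.62 (-0.37, SE 0.08, adjusted p = 0.0026).

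**Figure D3:**
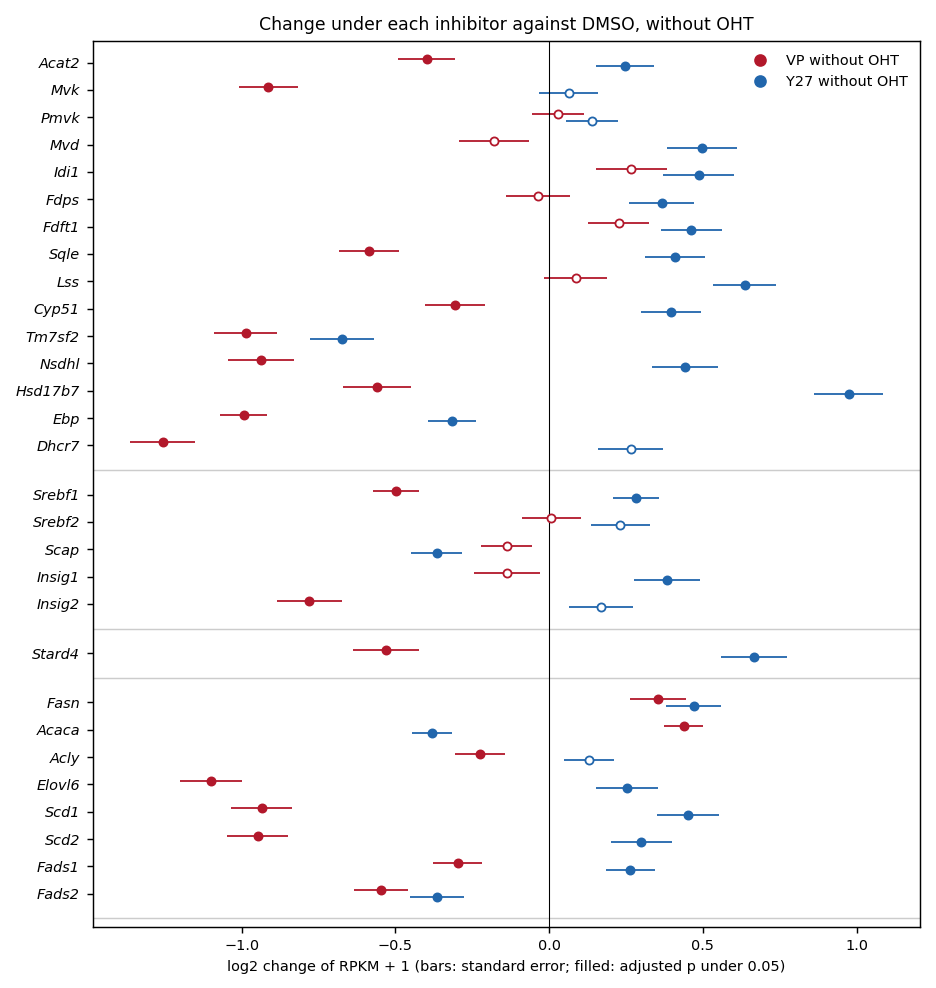
Change of each tested member under VP (red) and under Y27 (blue), both against the same DMSO libraries, as log2 change of RPKM + 1 (x axis) with its standard error; filled points passed an adjusted p of 0.05, and grey lines part the roles. Red points reach -1.26 (Dhcr7) and blue points reach 0.97 (Hsd17b7); Tm7sf2, Ebp and Fads2 are to the left under both, Fasn is to the right under both, and Acaca lies on opposite sides.

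Both sets of changes use the same DMSO libraries, so the inhibitors were also set against each other with no DMSO library in the contrast. This comparison was added after the values were seen. Without OHT 22 members were higher and 2 lower under Y27 than under VP, where 70.4% of all genes passed, 36.1% higher and 34.3% lower. The median was 0.65 for members and 0.021 for all genes. Hsd17b7 was 1.53 higher (SE 0.11), at 9.89 and 11.02 RPKM under Y27 and 3.15 and 2.76 under VP, Dhcr7 1.52 (SE 0.11), Scd1 1.39 (SE 0.10), Nsdhl 1.38 (SE 0.11) and Elovl6 1.35 (SE 0.10). The Dhcr7 difference turns to -1.16 with the decimal sign placed by closeness alone. Acaca (-0.82, SE 0.06) and Scap (-0.23, SE 0.08) were lower under Y27. With OHT 18 members were higher and 2 lower, against 66.3% of all genes (31.8% higher, 34.5% lower), and those lower were Acaca (-0.49, SE 0.06) and Pmvk (-0.31, SE 0.08).

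**Figure D4:**
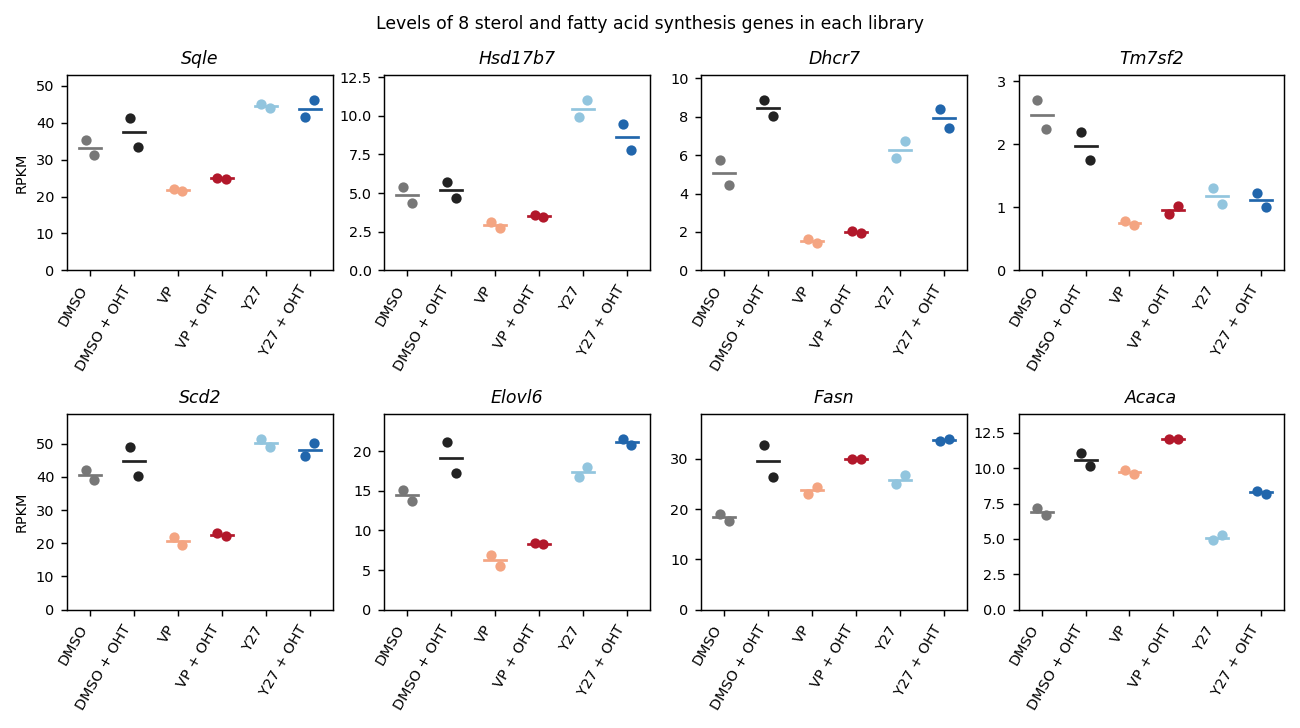
RPKM (y axes, from 0) of 8 members in each group (x axes); points are libraries and lines the mean of the pair. Sqle, Hsd17b7, Scd2 and Elovl6 are lowest in the VP libraries and highest in Y27 or Y27 + OHT libraries, Tm7sf2 is highest in DMSO, and Acaca is lowest in Y27.

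MycER activation in solvent raised members of both branches. With OHT in DMSO 10 members were higher and 1 lower. Among all genes 34.2% passed, 24.2% higher and 10.0% lower. The median was 0.14 for members and 0.056 for all genes. In the fatty acid branch 5 of 8 enzymes rose, with a branch median of 0.32. In the sterol branch 4 of 15 rose, a share near the 24.2% of all genes, with a median of 0.13. The difference between the branches was not tested. Neither branch had a call for a fall with this scaling. Quantile normalization gave 10 members higher and 3 lower, and median-ratio scaling moved the calls among all genes from 2680 higher of 3789 to 1997 higher of 4004. As a check on the OHT labels, Ncl, a nucleolar gene raised by Myc, rose by 0.91 (SE 0.07) in DMSO, 0.87 (SE 0.07) in Y27 and 0.33 (SE 0.07) in VP. Myc fell by 0.85 (SE 0.09) with OHT in DMSO and by 0.62 (SE 0.09) in Y27. It had a change of 0.01 (SE 0.09) in VP, and was itself 1.65 (SE 0.09) higher in VP than in DMSO. Whether the Myc values also count reads of MycER was not tested.

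Fasn was at 19.0 and 17.7 RPKM in DMSO and at 32.7 and 26.4 in DMSO + OHT (0.65, SE 0.09, adjusted p = 1.6e-04). Acaca was at 7.18 and 6.66 RPKM and then at 11.1 and 10.1 (0.55, SE 0.06, adjusted p = 4.3e-05). In both, every OHT library lay above every DMSO library. Elovl6 (0.38, SE 0.10), Acly (0.37, SE 0.08) and Scd1 (0.28, SE 0.10, adjusted p = 0.0474) rose as well, while Scd2, Fads1 and Fads2 had changes of -0.06 to 0.13 with no call.

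In the sterol branch Dhcr7 rose from 5.73 and 4.43 RPKM to 8.86 and 8.04 with OHT (0.64, SE 0.11, adjusted p = 5.0e-04). Lss rose from 8.41 and 7.08 to 13.4 and 10.2 RPKM (0.54, SE 0.10, adjusted p = 0.0015). Mvk was at 14.4 and 11.1 RPKM with OHT (0.47, SE 0.10, adjusted p = 0.0025) and Cyp51 at 27.6 and 22.2 (0.36, SE 0.10, adjusted p = 0.013). The other 11 tested enzymes, among them Sqle, Fdps and Idi1, had changes of -0.23 to 0.17. Scap rose from 10.2 and 9.49 RPKM to 16.1 and 13.2 (0.53, SE 0.08, adjusted p = 3.9e-04), and Insig2 fell from 7.53 and 6.81 to 5.79 and 5.55 RPKM (-0.29, SE 0.11, adjusted p = 0.0483). Srebf1 and Srebf2 each had a change of 0.10.

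The number of calls with OHT in DMSO moved with single libraries. It was 7 without DMSO replicate 2, 7 without DMSO + OHT replicate 1 and 18 without DMSO + OHT replicate 2, all of them higher. The median of the members moved likewise, to 0.074, -0.002 and 0.301, and was 0.048 with median-ratio scaling. Fasn, Acaca, Dhcr7, Lss, Scap, Mvk and Acly kept their call without each of the 12 libraries in turn, and Scd1, Insig2, Cyp51 and Elovl6 each lost it in at least 1.

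Under VP, OHT raised 4 members and lowered none, against 5.75% of all genes (5.31% higher, 0.442% lower). The median was 0.21 for members and 0.079 for all genes. Mvk was at 4.34 and 4.15 RPKM in VP and at 5.81 and 6.18 in VP + OHT (0.42, SE 0.10, adjusted p = 0.026), and Lss at 8.49 and 8.04 and then at 11.4 and 11.1 (0.40, SE 0.10, adjusted p = 0.038). Elovl6 was at 6.93 and 5.53 RPKM and then at 8.35 and 8.30 (0.37, SE 0.10, adjusted p = 0.0468). Acaca was at 9.84 and 9.61 RPKM and then at 12.03 in both (0.28, SE 0.06, adjusted p = 0.024). The groups did not overlap for these genes, but 1 call was left without VP replicate 1 and 0 were left without VP replicate 2 or without either VP + OHT library.

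Under Y27, OHT raised 3 members and lowered 1, against 31.8% of all genes (19.9% higher, 11.9% lower). The median was -0.02 for members and 0.004 for all genes, and none of the 15 sterol enzymes passed. Acaca was at 4.92 and 5.25 RPKM in Y27 and at 8.39 and 8.20 in Y27 + OHT (0.61, SE 0.06, adjusted p = 1.3e-05). Scap was at 7.22 and 7.62 RPKM and then at 12.4 and 11.2 (0.60, SE 0.08, adjusted p = 1.3e-04), and Fasn at 24.96 and 26.8 and then at 33.6 and 33.9 (0.37, SE 0.09, adjusted p = 0.0071). Insig2 was at 8.86 and 7.53 RPKM and then at 6.42 and 5.68 (-0.38, SE 0.11, adjusted p = 0.015). The count was 2 without Y27 replicate 1 and 7 without either DMSO + OHT library. Median-ratio scaling gave 4 higher and 3 lower, and quantile normalization 5 and 3.

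**Figure D5:**
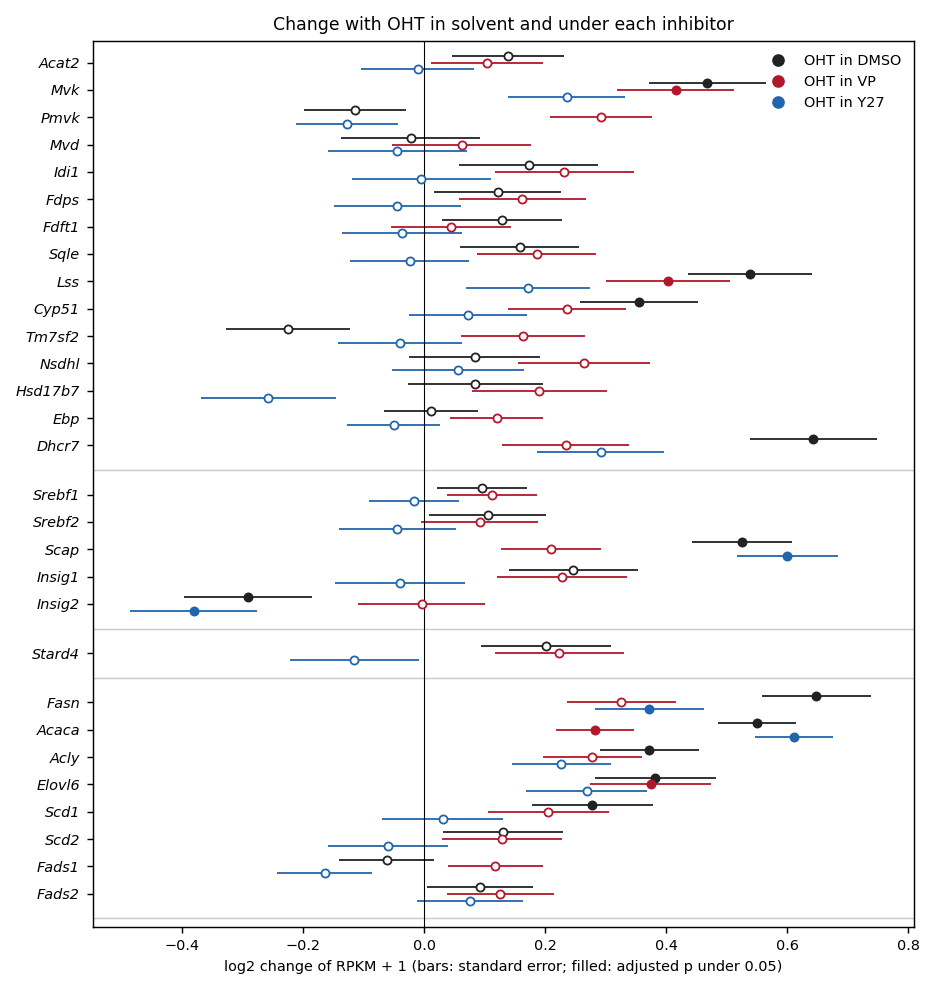
Change of each tested member with OHT in DMSO (black), in VP (red) and in Y27 (blue) as log2 change of RPKM + 1 (x axis) with its standard error; filled points passed an adjusted p of 0.05, and grey lines part the roles. Fasn, Acaca and Scap are among the members to the right in all 3 backgrounds, as are Mvk, Lss, Dhcr7, Elovl6 and Acly. The largest change is 0.65 for Fasn in DMSO.

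The difference between the OHT responses was tested directly. Between VP and DMSO no member passed, against 4.02% of all genes (1.46% with a positive difference, 2.55% with a negative one), and 6 members had an unadjusted p under 0.05. The smallest adjusted p was 0.083, for Pmvk (0.41, SE 0.12). Dhcr7 had a difference of -0.41 (SE 0.15, adjusted p = 0.16), Fasn of -0.32 (SE 0.13) and Acaca of -0.27 (SE 0.09). Between Y27 and DMSO no member passed, against 0.126% of all genes (0.0722% positive, 0.0541% negative), and 4 members had an unadjusted p under 0.05, with a smallest adjusted p of 0.47. With standard errors of 0.09 to 0.16, these libraries do not show whether an inhibitor changes the OHT response of a member.

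With MycER active most of the falls under VP were repeated in a separate set of libraries. Against DMSO + OHT 18 members were lower and 3 higher in VP + OHT, where 64.5% of all genes passed (39.1% lower, 25.4% higher). The median was -0.45 for members and -0.086 for all genes. Of the 18 lower without OHT and the 18 lower with OHT, 17 were shared. Dhcr7 was at 8.86 and 8.04 RPKM in DMSO + OHT and at 2.03 and 1.92 in VP + OHT (-1.67, SE 0.11, adjusted p = 1.7e-08), again with the decimal sign deciding: placed by closeness alone the change is 1.13. Elovl6 was at 21.1 and 17.2 RPKM and then at 8.35 and 8.30 (-1.11, SE 0.10). Scd1 was at 30.2 and 25.3 and then at 13.5 and 13.0 (-1.01, SE 0.10), and Scd2 at 49.1 and 40.3 and then at 23.0 and 22.1 (-0.95, SE 0.10). Mvk was at 14.4 and 11.1 RPKM and then at 5.81 and 6.18 (-0.97, SE 0.10). Both VP + OHT libraries were below both DMSO + OHT libraries in each of these.

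Scap, with no call for VP without OHT, was lower with OHT: 16.1 and 13.2 RPKM in DMSO + OHT and 10.3 and 10.5 in VP + OHT (-0.45, SE 0.08, adjusted p = 3.2e-04). Its OHT response did not differ between VP and DMSO past the threshold (-0.32, SE 0.12, adjusted p = 0.17). Pmvk (0.43, SE 0.08), Idi1 (0.33, SE 0.11) and Acaca (0.17, SE 0.06, adjusted p = 0.035) were higher in VP + OHT. The calls of Idi1 and Acaca were lost without either VP + OHT library or without DMSO + OHT replicate 2. Fasn, higher under VP without OHT, had a change of 0.03 (SE 0.09) with OHT and no call. Fads1, lower under VP without OHT, had a change of -0.12 (SE 0.08) with OHT and no call.

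Y27 with OHT gave fewer calls and a less settled count. In Y27 + OHT 7 members were higher and 5 lower than in DMSO + OHT, against 43.2% of all genes (10.3% higher, 32.9% lower). The median was 0.13 for members and -0.099 for all genes. Those 7 were among the 18 raised without OHT, and those 5 were the same as the 5 lowered without OHT. In the sterol branch 6 of 15 enzymes rose and 2 fell, and in the fatty acid branch 0 of 8 rose and 2 fell. Fasn, Scd1, Scd2, Fads1 and Elovl6, raised by Y27 without OHT, had changes of 0.11 to 0.20 with OHT and no call. Hsd17b7 was at 5.69 and 4.70 RPKM in DMSO + OHT and at 9.44 and 7.77 in Y27 + OHT (0.63, SE 0.11, adjusted p = 5.5e-04). Mvd was at 11.3 and 8.84 RPKM and then at 15.01 and 13.6 (0.48, SE 0.11), and Nsdhl at 9.61 and 7.34 and then at 11.9 and 11.2 (0.41, SE 0.11). Stard4 (0.35, SE 0.11) and Idi1 (0.31, SE 0.11) also rose. Tm7sf2 was at 2.19 and 1.75 RPKM and then at 1.23 and 1.003 (-0.49, SE 0.10, adjusted p = 0.0019).

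For this contrast the scaling and the DMSO + OHT replicates decide the count. Without DMSO + OHT replicate 1, the higher of the pair for every member, 14 members were higher and 3 lower, and without replicate 2 only Hsd17b7 was higher and 6 were lower. The median of the members was 0.259 and 0.030 in these fits. Median-ratio scaling moved the median of all genes from -0.099 to 0.003 and gave 17 higher and 4 lower, and quantile normalization gave 15 and 5. The fall of Tm7sf2, Ebp and Acaca and the rise of Hsd17b7 were called in all of these fits.

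Further genes of the pathway, from a longer list, were mostly lower under VP and higher under Y27 in the sterol branch. Of 14 tested further sterol genes 10 were lower and 2 higher under VP without OHT, and 9 were higher and 1 lower under Y27, against 40.8% lower of all genes under VP and 17.2% higher under Y27. Rdh11, a retinol dehydrogenase, fell by 0.73 (SE 0.10) under VP and rose by 0.64 (SE 0.10) under Y27. Sc5d, which introduces an unsaturation into the sterol ring, fell by 0.45 (SE 0.09) under VP and rose by 0.69 (SE 0.09) under Y27. Npc1, which moves cholesterol out of lysosomes, fell by 0.60 (SE 0.08) under VP. With OHT in DMSO 4 of the 14 were higher, a share near the 24.2% of all genes, with Soat1, which esterifies cholesterol, at 0.70 (SE 0.07).

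The further fatty acid genes were mixed. Of 13 tested, 5 were higher and 6 lower under VP, 3 higher and 7 lower under Y27, and 4 higher and 1 lower with OHT in DMSO. Over all genes these shares were 26.9% and 40.8%, 17.2% and 33.5%, and 24.2% and 10.0%, and the counts of the list lie near several of them. Dgat2, which makes triglyceride, rose by 2.01 (SE 0.10) with OHT in DMSO and by 1.99 (SE 0.10) in Y27, and by 0.92 (SE 0.10) in VP. The difference between VP and DMSO passed for Dgat2 (-1.09, SE 0.15, adjusted p = 0.0027). Acsl3, an acyl-CoA synthetase, changed by -1.04 (SE 0.09) under VP, and Mid1ip1, which promotes acetyl-CoA carboxylase activity, by 0.98 (SE 0.08).

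Of 4 tested genes tied to the sterol-sensing LXR receptors, 2 passed under VP without OHT, where 67.7% of all genes passed. Lpcat3 fell by 1.37 (SE 0.08) and Apoe rose by 0.56 (SE 0.11). Under Y27 without OHT, where 50.7% of all genes passed, only Mylip, a ubiquitin ligase induced by LXR, passed among them. Mylip rose by 0.81 (SE 0.05). Neither count exceeds the share of all genes.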

How the data were processed

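The authors used TopHat2 2.0.8 to align the reads of the 12 libraries to mm9, then SAMtools, obtained gene counts from featureCounts 1.4.5-p1 and deposited RPKM per library. Libraries came from total RNA without poly(A) selection. Read pairing and removal of duplicates are not given in the sources used here. The authors' comparison tables, made with DESeq2 (fold changes and p-values), were not used, nor was a second RPKM table that repeats 8 of these columns.

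In the deposited table the decimal sign was missing from every RPKM of at least 1, which is 46.4% of 260052 values in 21671 genes. The sign was restored from whole-number arithmetic, since an RPKM is whole reads over gene length and library total. Library totals (21857777 to 30856488 reads) came from intact low values. Places within a gene were chosen by whole reads, closeness of libraries, replicates most strongly, and GENCODE exonic length on GRCm38. Of the genes, 10646 were intact, 2012 were anchored by intact values, 8946 were placed by whole reads and 21604 were used, without the 27 symbols turned into dates, 29 genes with no length and 11 with no place. Implied lengths had a median ratio of 1.00 to annotated ones, which is no independent check. For 421 genes closeness alone gave another place.

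The 11081 genes whose mean reached 0.5 RPKM entered limma 3.58.1 (R 4.3.3) as log2(RPKM + 1), in 1 fit of 6 groups with 6 residual degrees of freedom and a mean-variance trend, two-sided, with Benjamini-Hochberg adjustment over all genes and a threshold of 0.05. Other steps used Python 3.11.15 and numpy 2.4.6. The scripts were tested on simulated data. Full values are given for up to 5 members with the largest called change in each contrast, and for others named beside them, chosen after their values were seen. The members and gene lists were chosen with earlier results of these data known. Alternatives were another pseudocount, filter, scaling, set of libraries, decimal placement, a replicate block and leaving out each library. Some genes of the longer list are not reported here.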

Additional observations from a re-analysis of the deposited data

How the results depend on the processing

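Without 1 library at a time, the number of members called ranged from 7 to 18 for OHT in DMSO, 18 to 22 for VP without OHT, 16 to 24 for Y27 without OHT, 19 to 22 for VP with OHT, 7 to 17 for Y27 with OHT, 0 to 6 for OHT in VP, 2 to 7 for OHT in Y27, 0 to 2 for the difference between the OHT responses in VP and DMSO and 0 for that between Y27 and DMSO. For Y27 with OHT, against 12 calls, median-ratio scaling gave 21 and quantile normalization 20. For OHT in VP, against 4, no filter on low values gave 1, median-ratio scaling 2 and a fit of the 8 DMSO and VP libraries 2. For OHT in Y27, against 4, a minimum mean of 2 RPKM gave 7, median-ratio scaling 7 and quantile normalization 8. For the difference between VP and DMSO, against 0, median-ratio scaling gave 2 and quantile normalization 4. The cause of these shifts was not tested. With the decimal sign placed by closeness alone, Dhcr7 turned to 1.43 for VP without OHT, 1.13 for VP with OHT, -1.16 for Y27 against VP without OHT and -1.22 with OHT. No other called change of a member turned its direction under these alternatives.

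The groups share replicate numbers, and the main fit treated the libraries as unpaired. The deviations of same-numbered libraries correlated at -0.220 to 0.281 over pairs of groups. The lowest value was for VP with Y27 and the highest for DMSO with DMSO + OHT. Whether same-numbered libraries were handled together was not tested. With the replicate number as a block, 11 members were called for OHT in DMSO, 22 for VP without OHT, 24 for Y27 without OHT, 21 for VP with OHT, 12 for Y27 with OHT, 5 for OHT in VP, 6 for OHT in Y27, 26 and 20 for Y27 against VP without and with OHT, 1 for the difference between VP and DMSO and 0 for that between Y27 and DMSO.

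With 2 libraries a group, differences of the size of the standard errors, about 0.1 on the log2 scale, were not detectable.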
